A study of Homo sapiens with 14 samples.

Results

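The genes described are the Eph receptors, the ephrins, the semaphorins of classes 3 to 7, the plexins and the neuropilins, followed across an induction of human neural crest cells. Members were taken by symbol from the deposited count table, which gave 53 of its 26485 genes: 9 EPHA and 5 EPHB receptors, 5 EFNA and 3 EFNB ligands, 7 secreted SEMA3 ligands, 13 membrane-bound SEMA4 to SEMA7 ligands, 9 plexins and 2 neuropilins. All 53 passed the filter on low counts. Polyadenylated RNA was sequenced from cultures of WA01 (H1), an established line of human embryonic stem cells, in 7 groups of 2 libraries made from 500000 cells each. High Wnt cultures received 10 µM CHIR99021 and low Wnt cultures 3 µM, from hour 0 to 72, of this compound that blocks GSK3 and so switches on Wnt signaling, and were collected after day 5. At each dose, 1 group received no additive, 1 received SB4 (SB431542, which blocks the type I receptors shared by activin, nodal and TGF-beta, at 10 µM) and 1 received TGFB (recombinant TGF-beta 1, at 5 ng/µL as labelled), both for hours 0 to 120. The 6 groups are called high Wnt + TGFB, high Wnt + SB4, high Wnt, low Wnt + TGFB, low Wnt + SB4 and low Wnt, and the uninduced cells are called hESC. All libraries are of 1 cell line. Whether the paired libraries in each group were grown as separate cultures is not in the labels, so each p-value reflects only how far these libraries scatter, and that scatter may be technical.

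Ephrins are membrane-bound ligands that meet Eph receptor tyrosine kinases on a neighbouring cell, and both partners can signal, usually so that the cells repel each other. Class 3 semaphorins are secreted and act through a neuropilin, which binds the ligand, and a plexin, which signals into the cell, whereas most other semaphorins are held in the membrane and bind plexins directly. In vertebrate embryos both systems keep streams of migrating neural crest cells apart and out of tissues they do not enter.

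Library totals ran from 10879287 to 19106827 counts, and the members took between 0.244% (an hESC library) and 0.518% (a low Wnt library) of them. The labels call the induced cultures neural crest cells. Of 8 crest markers, 3 passed as higher and 3 as lower in high Wnt against hESC, where 72.4% of all genes passed. In low Wnt against hESC 5 passed as higher and 2 as lower, where 71.4% of all genes passed. The crest regulators SOX10 and FOXD3 averaged at most 6.34 CPM and 8.55 CPM (counts over each library's TMM-scaled size, times 1e6) in any induced group, against 5.64 and 36.5 CPM in hESC. The crest gene PAX3 averaged 173 CPM in high Wnt, against 7.61 CPM in low Wnt and 0.0848 CPM in hESC, and SNAI2 41.7 CPM in high Wnt, against 18.4 CPM in low Wnt and 0.868 CPM in hESC. SOX9 averaged 22.2 CPM in high Wnt, against 17.7 CPM in low Wnt and 5.91 CPM in hESC. TFAP2A averaged 0.118 CPM in high Wnt, against 3.50 CPM in low Wnt and 0.153 CPM in hESC, and TFAP2B had no counts in high Wnt. ETS1 averaged 56.0 CPM in high Wnt, against 14.8 CPM in low Wnt and 82.9 CPM in hESC. Of 6 neural tube markers, 3 passed as higher and 2 as lower in high Wnt against hESC (36.3% and 36.1% of all genes). In low Wnt against hESC all 6 passed as higher (35.8% of all genes). Among them SOX1 and PAX6 averaged 1.16 and 6.33 CPM in high Wnt and 176 and 52.0 CPM in low Wnt, against 0.360 and 0.482 CPM in hESC. OLIG3 averaged 0.324 CPM in high Wnt, against 14.6 CPM in low Wnt and 1.46 CPM in hESC. These are bulk libraries, in which fewer cells of a type and less RNA per cell cannot be told apart.

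Promoters of 4 genes that the results turn on are shown: the neuropilin with the highest level, the plexin with the smallest p for a TGFB effect that differs between doses, and the Eph receptors that rose most and fell furthest against hESC in high Wnt among receptors with counts in every library. Each runs 5′ to 3′ over the 250 bases before the gene's start in RefSeq (GRCh38.p14). NRP2 lies at chr2:205682251-205682500 on the plus strand, PLXNA2 at chr1:208244385-208244634 on the minus strand, EPHB3 at chr3:184561535-184561784 on the plus strand and EPHA1 at chr7:143408857-143409106 on the minus strand. Capitals mark a match, on either strand, to the TCF/LEF core (CTTTGAT or CTTTGTT) or to the SMAD box (CAGAC).
NRP2: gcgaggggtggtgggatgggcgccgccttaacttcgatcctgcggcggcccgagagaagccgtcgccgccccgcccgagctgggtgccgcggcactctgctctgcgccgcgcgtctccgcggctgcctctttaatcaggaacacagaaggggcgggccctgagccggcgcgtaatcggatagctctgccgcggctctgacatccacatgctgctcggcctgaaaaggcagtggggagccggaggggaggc
PLXNA2: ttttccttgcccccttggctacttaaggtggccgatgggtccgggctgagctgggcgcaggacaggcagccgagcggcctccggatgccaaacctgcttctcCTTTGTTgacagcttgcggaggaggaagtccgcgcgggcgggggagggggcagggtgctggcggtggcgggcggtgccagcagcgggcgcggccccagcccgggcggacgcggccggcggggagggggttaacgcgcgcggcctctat
EPHB3: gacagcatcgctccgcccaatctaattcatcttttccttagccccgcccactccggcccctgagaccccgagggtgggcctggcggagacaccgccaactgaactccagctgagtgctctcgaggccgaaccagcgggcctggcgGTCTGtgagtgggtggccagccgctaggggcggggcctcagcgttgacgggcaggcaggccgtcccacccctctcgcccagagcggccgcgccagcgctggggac
EPHA1: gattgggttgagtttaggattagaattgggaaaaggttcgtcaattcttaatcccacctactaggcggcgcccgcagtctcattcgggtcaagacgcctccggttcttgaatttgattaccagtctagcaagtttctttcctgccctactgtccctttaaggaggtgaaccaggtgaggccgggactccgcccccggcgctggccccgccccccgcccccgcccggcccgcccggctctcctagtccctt
PLXNA2 held 1 TCF/LEF core and EPHB3 held 1 SMAD box read on the opposite strand, while neither motif was in these windows of NRP2 and EPHA1. RefSeq promoters were matched for 47 members (74 entries); EPHA10, NRP1, EFNB3, SEMA6B, SEMA6A and SEMA3A had no entry. The TCF/LEF core was in 9.46% of the member entries, against 6.60% of all 35116 entries, and the SMAD box in 36.5%, against 38.0%. A match describes letters in the window and is not a binding site.

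**Figure D1:**
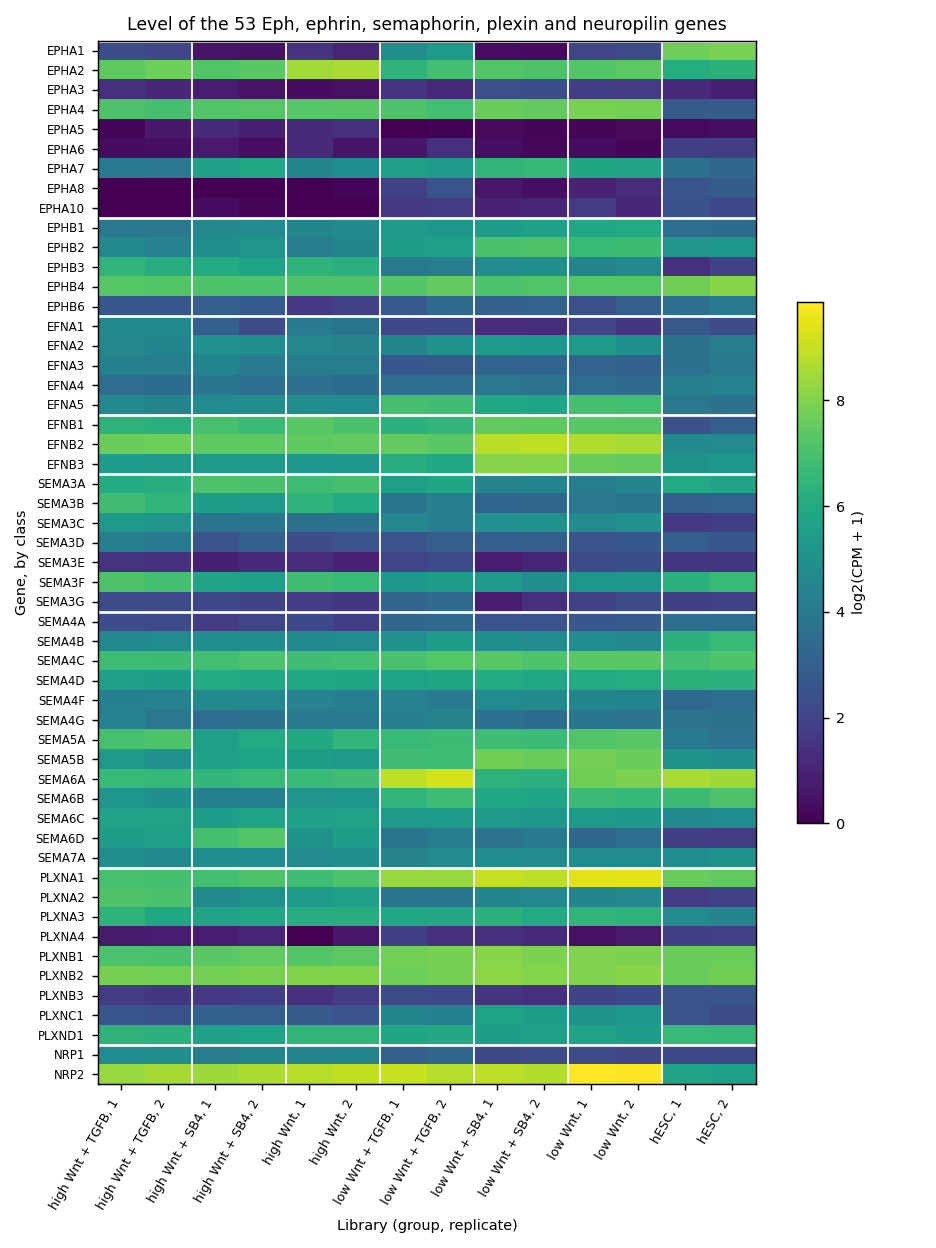
Level of each of the 53 genes (rows, by class) in each of the 14 libraries (columns), as log2(CPM + 1) in colour. EPHA1 is brightest in the hESC columns, NRP2, PLXNA1, EFNB2 and EFNB3 are brightest in low Wnt or low Wnt + SB4, and the 2 libraries of a group look alike.

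Set side by side per exon length (CPM per kb), the leading genes of the families changed with the culture. In high Wnt the highest level was that of EPHA2 at 94.8 ± 4.99 CPM per kb (SD, n = 2, as for all means below), followed by NRP2 at 60.7 ± 4.20 and EFNB1 at 42.9 ± 5.94 CPM per kb. In low Wnt it was NRP2 at 119 ± 2.99 CPM per kb, followed by EFNB2 at 90.7 ± 3.82 and PLXNA1 at 76.3 ± 2.16 CPM per kb. In hESC the order began with EPHA1 at 65.9 ± 5.70, EPHB4 at 55.9 ± 9.66 and SEMA6A at 53.1 ± 4.56 CPM per kb, and neighbours in that order did not differ beyond the spread of their libraries.

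The 3 EFNB ligands together stood at 93.9 ± 4.95 CPM per kb in high Wnt and 195 ± 6.02 CPM per kb in low Wnt, against 18.2 ± 1.97 CPM per kb in hESC. The 2 neuropilins summed to 64.2 ± 4.09 CPM per kb in high Wnt and 120 ± 3.08 CPM per kb in low Wnt, against 7.23 ± 0.476 CPM per kb in hESC. The secreted SEMA3 ligands ran in another order, with 76.5 ± 4.97 CPM per kb in high Wnt and 25.2 ± 1.31 CPM per kb in low Wnt, against 40.1 ± 2.49 CPM per kb in hESC. So low Wnt had the highest neuropilin sum and the lowest SEMA3 sum of these 3 groups, but single members differed. NRP2 made up nearly all of the neuropilin sum in low Wnt, at 119 CPM per kb. NRP1 was highest in high Wnt, at 20.6 CPM, against 3.59 CPM in low Wnt and 3.40 CPM in hESC. The SEMA3 members were split, with 3 of 7 called higher and 2 lower in low Wnt against hESC (35.8% and 35.6% of all genes). The sum of the 5 EPHB receptors spanned only 58.5 ± 1.09 CPM per kb in high Wnt and 63.8 ± 2.47 CPM per kb in low Wnt, against 63.4 ± 10.2 CPM per kb in hESC, although its members moved apart, as described below. These sums are descriptions with no test.

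**Figure D2:**
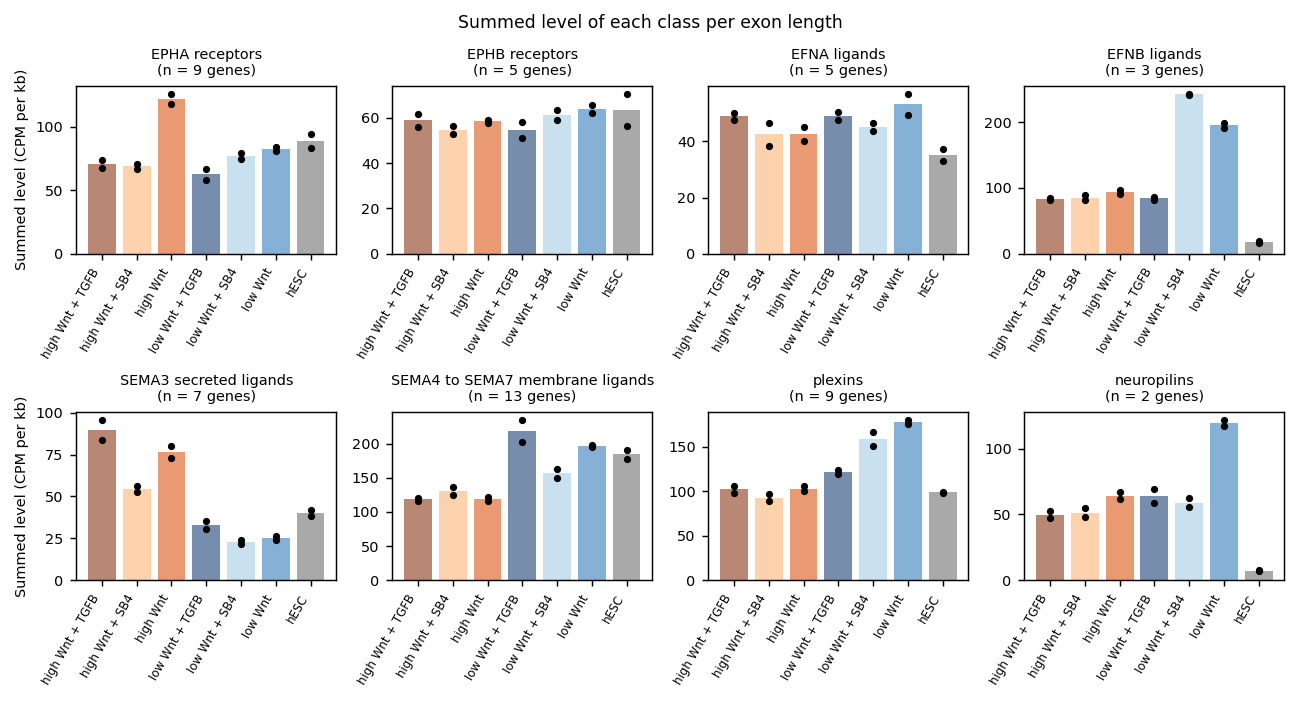
Summed level of each class in CPM per kb of exon, per group; bars are means and dots the 2 libraries. The EFNB and neuropilin bars are lowest in hESC, and the SEMA3 bars are higher in every high Wnt group than in every low Wnt group.

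The first question is how the guidance genes of uninduced cells differ from those of the induced cultures. In low Wnt against hESC, the receptor EPHA4, the ephrin-B ligands EFNB1 and EFNB2 and neuropilin-2 rose most, while EPHA1 and the secreted SEMA3A and SEMA3F fell. Of the 53 members, 45 passed an adjusted p of 0.05, against 71.4% of all 16149 genes tested, with 28 higher (35.8% of all genes) and 17 lower (35.6%). In 40 of these the call was kept in all alternatives at that threshold (other tools, scalings and filters, and leaving out each library). The median log2 fold change was 0.35 over the members and 0.00 over all genes. In high Wnt against hESC, 42 members passed, against 72.4% of all genes, with 24 higher (36.3% of all genes) and 18 lower (36.1%), and a median of 0.27 against 0.01. Since most genes of the table passed in both comparisons, and both share the hESC libraries, the counts say little of the members, and the values follow side by side.

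Among the ligands, EFNB1, whose loss causes a craniofacial syndrome in humans, was at 157 and 129 CPM in high Wnt and at 157 and 155 CPM in low Wnt, against 4.52 and 6.87 CPM in hESC. Its induced libraries all lay far above both hESC libraries, with log2 fold changes of 4.66 ± 0.17 (SE) in high Wnt (adjusted p = 7.45e-13) and 4.79 ± 0.17 in low Wnt (adjusted p = 7.49e-13). EFNB2, the ephrin that marks arteries and binds EPHB4, was at 169 and 179 CPM in high Wnt and at 410 and 386 CPM in low Wnt, against 24.4 and 25.8 CPM in hESC. No 2 of these groups overlapped, and the log2 fold change was 2.79 ± 0.10 in high Wnt and 3.99 ± 0.10 in low Wnt (adjusted p = 5.26e-13 and 2.55e-14). EFNB3 was at 37.6 and 35.3 CPM in high Wnt and at 189 and 181 CPM in low Wnt, against 31.8 and 37.5 CPM in hESC. It rose in low Wnt by a log2 fold change of 2.42 ± 0.11 (adjusted p = 1.27e-11), while the high Wnt libraries overlapped those of hESC, with a log2 fold change of 0.07 ± 0.11 (adjusted p = 0.57). The EFNA ligand EFNA5, a GPI-anchored ephrin, was at 27.8 and 27.0 CPM in high Wnt and 122 and 118 CPM in low Wnt, against 14.5 and 12 CPM in hESC, and rose in both (log2 fold changes of 1.04 ± 0.13 and 3.17 ± 0.12).

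Among the receptors, EPHA4, which binds ephrins of both classes, was at 152 and 158 CPM in high Wnt and at 232 and 225 CPM in low Wnt, against 6.00 and 6.28 CPM in hESC. The groups did not overlap, and the log2 fold change was 4.66 ± 0.13 in high Wnt (adjusted p = 3.34e-14) and 5.22 ± 0.13 in low Wnt (adjusted p = 1.41e-14), the largest of any member there. EPHB3, a receptor for ephrin-B ligands whose promoter is printed above, was at 85.4 and 76.6 CPM in high Wnt and at 20.6 and 22.8 CPM in low Wnt, against 1.55 and 2.72 CPM in hESC. It was the member with the largest rise in high Wnt, with a log2 fold change of 5.26 ± 0.22 (adjusted p = 2.45e-12), beside 3.36 ± 0.23 in low Wnt. EPHA1, the receptor first isolated from this family, ran the other way, with 1.91 and 1.03 CPM in high Wnt and 3.17 and 3.89 CPM in low Wnt, against 208 and 235 CPM in hESC. Its log2 fold change was -7.26 ± 0.23 in high Wnt and -5.97 ± 0.20 in low Wnt (adjusted p = 1.1e-13 and 3.05e-13). The 5 epithelial markers (CDH1, EPCAM, CLDN7, ESRP1 and GRHL2) all passed as lower in high Wnt and in low Wnt (36.1% and 35.6% of all genes). They summed to 14.3 to 19 CPM in high Wnt and 28.4 to 38.0 CPM in low Wnt, against 1041 to 1057 CPM in hESC, with GRHL2 at 0 in high Wnt. They moved with EPHA1, and their part in the result was not tested.

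EPHA2, EPHA7 and EPHB1 rose at both doses, EPHA2 by log2 fold changes of 2.35 ± 0.15 in high Wnt and 1.08 ± 0.15 in low Wnt, EPHA7 by 1.20 ± 0.17 and 2.39 ± 0.16, and EPHB1 by 1.16 ± 0.13 and 2.55 ± 0.13. EPHB2, a receptor for ephrin-B ligands, was at 17.1 and 22.1 CPM in high Wnt and at 103 and 109 CPM in low Wnt, against 34.3 and 36.1 CPM in hESC. It was thus below hESC at the higher dose (log2 fold change -0.84 ± 0.14, adjusted p = 4.12e-05) and above it at the lower dose (1.58 ± 0.13, adjusted p = 1.31e-08). EPHB4 fell at both doses, by 0.79 ± 0.11 in high Wnt and by 0.66 ± 0.11 in low Wnt on the log2 scale.

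Of the rarer receptors, EPHA8 was at 0 and 0.138 CPM in high Wnt and at 0.914 and 1.38 CPM in low Wnt, against 5.26 and 6.62 CPM in hESC. That is 2 counts in high Wnt against 149 in hESC, a level 78.3-fold lower with a 95% counting interval of 21.3 to 652. EPHA10, a receptor with an inactive kinase domain, had 0 counts in high Wnt and 103 in hESC, at least 36.1-fold lower when set against 3 counts over the group. EPHB6, also kinase-inactive and listed on 2 contigs of the table, was at 2.08 and 2.75 CPM in high Wnt and at 4.32 and 6.88 CPM in low Wnt, against 11.4 and 15.1 CPM in hESC. Its groups did not overlap, with log2 fold changes of -2.44 ± 0.29 in high Wnt and -1.24 ± 0.26 in low Wnt (adjusted p = 1.13e-06 and 0.000448).

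Of the semaphorin receptors, NRP2, the co-receptor of SEMA3F, was at 446 and 492 CPM in high Wnt and at 934 and 902 CPM in low Wnt, against 54.0 and 48.8 CPM in hESC. The groups were far apart, with log2 fold changes of 3.19 ± 0.12 in high Wnt (adjusted p = 1.29e-12) and 4.16 ± 0.13 in low Wnt (adjusted p = 1.52e-13). NRP1, the co-receptor of SEMA3A and of VEGF, was at 21.0 and 20.2 CPM in high Wnt and at 3.96 and 3.23 CPM in low Wnt, against 3.41 and 3.39 CPM in hESC. It rose in high Wnt (2.59 ± 0.19, adjusted p = 2.94e-09), while the low Wnt libraries lay around those of hESC (0.08 ± 0.21, adjusted p = 0.75). PLXNA2, a signaling partner of neuropilins and a receptor of SEMA6A, was at 43.3 and 46.7 CPM in high Wnt and at 22.4 and 23.9 CPM in low Wnt, against 2.37 and 2.72 CPM in hESC. Both induced groups were above every hESC library, with log2 fold changes of 4.15 ± 0.17 and 3.19 ± 0.17 (adjusted p = 1.92e-12 and 8.09e-11). PLXNA1 was lower than hESC in high Wnt (-0.59 ± 0.11) and higher in low Wnt (1.91 ± 0.11). PLXND1, the receptor of SEMA3E, was at 90.0 and 86.5 CPM in high Wnt and at 50.4 and 45.1 CPM in low Wnt, against 103 and 95.6 CPM in hESC, and fell in low Wnt by 1.06 ± 0.10 on the log2 scale (adjusted p = 6.81e-08). PLXNB1, the receptor of SEMA4D, was at 150 and 168 CPM in high Wnt and at 248 and 243 CPM in low Wnt, against 195 and 202 CPM in hESC. Its rise in low Wnt was small (0.31 ± 0.09, adjusted p = 0.0084), and its fall in high Wnt (-0.32 ± 0.10, adjusted p = 0.00623) had an adjusted p of 0.0795 without high Wnt replicate 1. PLXNA4 was near the limit of counting, at 0 and 0.550 CPM in high Wnt and 0.365 and 0.658 CPM in low Wnt, against 2.67 and 2.72 CPM in hESC, with log2 fold changes of -3.14 ± 0.63 and -2.37 ± 0.55.

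Of the semaphorins, SEMA3A, which repels axons and crest cells through NRP1, was at 111 and 123 CPM in high Wnt and at 16.6 and 20.9 CPM in low Wnt, against 65.3 and 52.9 CPM in hESC. It stood above hESC at the higher dose (0.99 ± 0.12, adjusted p = 2.08e-06) and below it at the lower dose (-1.66 ± 0.13, adjusted p = 1.24e-08), with no overlap. SEMA3F, the ligand of NRP2, was at 114 and 99.3 CPM in high Wnt and 35.6 and 35.9 CPM in low Wnt, against 78.4 and 98.5 CPM in hESC, and fell in low Wnt (-1.31 ± 0.15, adjusted p = 1.03e-06). SEMA3C, which guides crest cells into the heart's outflow tract, was at 11.8 and 12.2 CPM in high Wnt and 25.9 and 31.0 CPM in low Wnt, against 2.22 and 2.55 CPM in hESC. It rose at both doses, by log2 fold changes of 2.34 ± 0.20 and 3.58 ± 0.18.

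Among membrane-bound semaphorins, SEMA5A rose at both doses (2.41 ± 0.17 in high Wnt and 3.40 ± 0.17 in low Wnt) and SEMA6D, a ligand of PLXNA1, did so too (3.97 ± 0.23 and 1.99 ± 0.25). SEMA4B was at 25.7 and 26.5 CPM in high Wnt and 27.1 and 23.9 CPM in low Wnt, against 79.9 and 99.6 CPM in hESC, and fell by 1.78 ± 0.15 and by 1.82 ± 0.15 on the log2 scale. SEMA4A, at 3.57 and 2.54 CPM in high Wnt and 5.36 and 6.16 CPM in low Wnt, against 11 and 11.3 CPM in hESC, fell by 1.87 ± 0.23 and by 0.95 ± 0.21. SEMA6A, a ligand of PLXNA2 and PLXNA4, was at 102 and 113 CPM in high Wnt and 210 and 240 CPM in low Wnt, against 393 and 348 CPM in hESC, and fell by 1.78 ± 0.12 and by 0.72 ± 0.11. SEMA7A, a GPI-anchored ligand of PLXNC1, passed in none of the 9 comparisons and averaged between 23.2 and 29.2 CPM in every group.

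The next comparison, high Wnt against low Wnt, asks how the dose of CHIR99021 set the guidance genes of the induced cultures. SEMA3A, SEMA3B, SEMA3F and the co-receptor NRP1 rose with the higher dose, and the ephrin-B ligands EFNB2 and EFNB3, the receptors EPHB1 and EPHB2, and the plexins PLXNA1 and PLXNC1 fell. Of the 53 members, 39 passed, against 38.5% of all genes, with 14 higher (19.4% of all genes) and 25 lower (19.1%), and 33 kept the call in all alternatives at the threshold (12 higher, 21 lower). The median log2 fold change was -0.56 over the members and -0.01 over all genes.

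SEMA3A rose by a log2 fold change of 2.65 ± 0.13 (adjusted p = 9.16e-11), with the lowest high Wnt library (111 CPM) above the highest low Wnt library (20.9 CPM). Its co-receptor NRP1 rose by 2.52 ± 0.18 (adjusted p = 7.68e-09), and its libraries did not overlap between the doses. SEMA3B, a ligand that shares exon sequence on its strand with a microRNA gene, MIR6872, was at 81.9 and 64.7 CPM in high Wnt, against 14.2 and 13 CPM in low Wnt, a log2 fold change of 2.43 ± 0.17 (adjusted p = 6.13e-09). SEMA3F rose by 1.58 ± 0.15 (adjusted p = 3.25e-07). SEMA3C went the other way, with a log2 fold change of -1.24 ± 0.15 (adjusted p = 3.15e-06), as did SEMA3E, at 1.41 and 0.894 CPM in high Wnt against 3.90 and 4.19 CPM in low Wnt. The secreted class was therefore split, with 3 of 7 higher and 2 lower (19.4% and 19.1% of all genes).

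EFNA1, an ephrin-A ligand of EPHA2, was at 16.4 and 12.7 CPM in high Wnt, against 3.23 and 1.91 CPM in low Wnt. It rose by 2.50 ± 0.28 on the log2 scale (adjusted p = 2.2e-06), and its receptor EPHA2, at 362 and 390 CPM in high Wnt against 148 and 165 CPM in low Wnt, rose by 1.26 ± 0.14 (adjusted p = 1.78e-06). EPHB3 rose by 1.90 ± 0.16 (adjusted p = 4.26e-08), alone among the 5 EPHB receptors. EPHB2 fell by 2.42 ± 0.14 (adjusted p = 3e-10) and EPHB1 by 1.38 ± 0.12 (adjusted p = 6.67e-08). Among ephrins, EFNB3 fell by 2.34 ± 0.11, EFNA5 by 2.13 ± 0.11 and EFNB2 by 1.19 ± 0.09 (adjusted p = 3.68e-11, 1.59e-10 and 1.32e-08), while EFNB1 differed by -0.13 ± 0.13 (adjusted p = 0.48). EPHA7 was at 20.6 and 26.6 CPM in high Wnt, against 54.5 and 53.9 CPM in low Wnt (-1.19 ± 0.15, adjusted p = 5.08e-06). EPHA10 had no counts in high Wnt against 57 in low Wnt, at least 15.2-fold lower.

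PLXNC1, the receptor of SEMA7A, was at 5.90 and 5.09 CPM in high Wnt, against 33.1 and 36.4 CPM in low Wnt. It fell by 2.66 ± 0.16 on the log2 scale (adjusted p = 7.75e-10). PLXNA1 was at 110 and 134 CPM in high Wnt, against 678 and 706 CPM in low Wnt, and fell by 2.50 ± 0.12 (adjusted p = 2.68e-11). PLXNA2 rose instead, by 0.96 ± 0.12 (adjusted p = 8.52e-06), so the A plexins did not move as 1 group. SEMA5B was at 43.8 and 39.5 CPM in high Wnt, against 221 and 203 CPM in low Wnt, and fell by 2.35 ± 0.11 (adjusted p = 5.22e-11). PLXND1 rose by 0.89 ± 0.10 and PLXNB1 fell by 0.63 ± 0.10, whereas NRP2 fell by 0.97 ± 0.11 (adjusted p = 1.68e-06, 5.2e-05 and 2.48e-06).

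Marker levels moved with the dose as well. The 6 neural tube markers summed to 33.7 to 42.0 CPM in high Wnt, with DBX1 at 0, against 290 to 299 CPM in low Wnt. Of these 6 markers 4 passed as lower (19.1% of all genes). IRX3 made up most of the high Wnt sum, at 29.9 CPM, against 36.3 CPM in low Wnt. The markers of caudal progenitors and paraxial mesoderm, of which 7 of 8 were listed under these symbols, summed to 474 to 513 CPM in high Wnt, against 7.47 to 9.26 CPM in low Wnt with UNCX at 0. All 7 passed as higher (19.4% of all genes). The part of these cells in the results above was not tested.

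**Figure D3:**
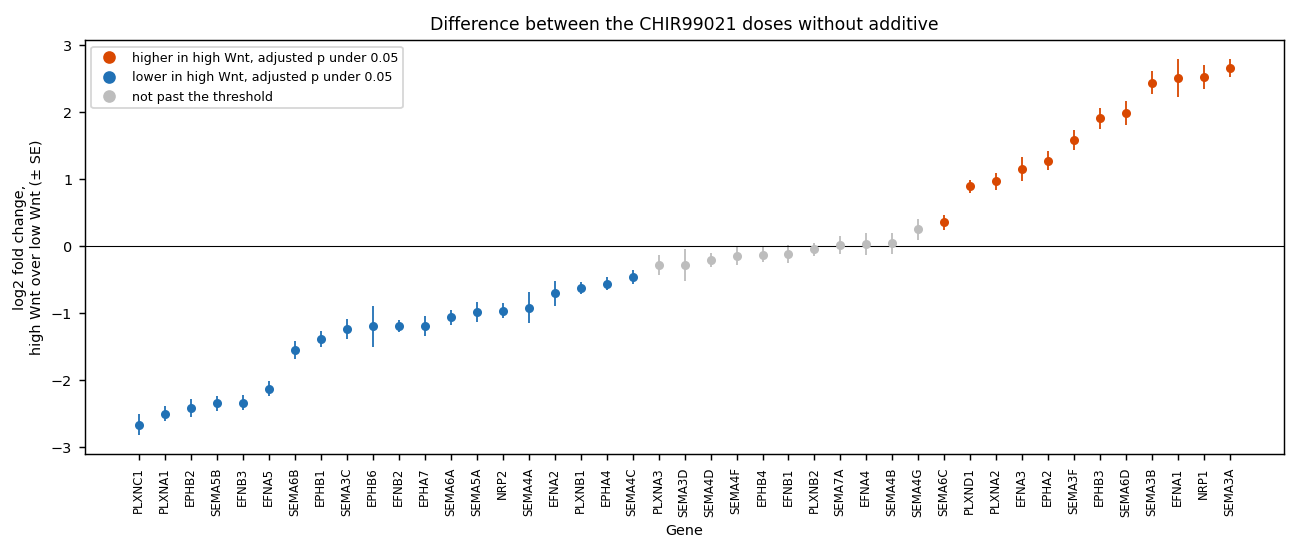
Log2 fold change of high Wnt over low Wnt with its standard error, in rising order, for the 43 genes whose higher group averaged 5 CPM or more; colour marks adjusted p under 0.05. PLXNC1 and PLXNA1 lie at the lower end and SEMA3A, NRP1, EFNA1 and SEMA3B at the upper end.

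The additives ask what blocking or adding TGF-beta signaling does at each dose. The comparisons of SB4 and of TGFB at 1 dose share that dose's libraries without additive, so their values are given side by side and not as separate support.

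In low Wnt + TGFB against low Wnt, all 3 ephrin-B ligands fell, with the receptors EPHB1, EPHB2 and EPHA4, the plexins PLXNA1, PLXNA2 and PLXNC1 and the co-receptor NRP2, while EPHA1, SEMA3A, SEMA6A and NRP1 rose. Of the 53 members, 30 passed, against 26.0% of all genes, with 13 higher (13.7% of all genes) and 17 lower (12.2%). On library totals alone 13 were higher and 12 lower. Only 16 calls were kept in all alternatives at the threshold (5 higher, 11 lower), and without low Wnt + TGFB replicate 2 the count was 19.

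EFNB3 was at 69.1 and 59.5 CPM in low Wnt + TGFB, against 189 and 181 CPM in low Wnt, and fell by 1.52 ± 0.11 on the log2 scale (adjusted p = 2.25e-08). EFNB2 was at 182 and 162 CPM in low Wnt + TGFB, against 410 and 386 CPM in low Wnt, and fell by 1.21 ± 0.09 (adjusted p = 4.13e-08). EFNB1 was at 78.8 and 88.9 CPM in low Wnt + TGFB, against 157 and 155 CPM in low Wnt, and fell by 0.89 ± 0.13 (adjusted p = 8.21e-05). For each of these ligands both TGFB libraries were below both libraries without additive, and the summed EFNB level was 84.3 ± 3.19 CPM per kb in low Wnt + TGFB, against 195 ± 6.02 CPM per kb in low Wnt. EPHB2, which binds them, was at 44.5 and 47.1 CPM in low Wnt + TGFB, against 103 and 109 CPM in low Wnt (-1.20 ± 0.13, adjusted p = 2.11e-06). EPHA4 was at 139 and 118 CPM in low Wnt + TGFB, against 232 and 225 CPM in low Wnt (-0.83 ± 0.10, adjusted p = 7.44e-06). The neural tube markers moved with these genes, at 75.2 to 79.4 CPM in low Wnt + TGFB, against 290 to 299 CPM in low Wnt. All 6 passed as lower (12.2% of all genes), and their part was not tested.

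PLXNA1 was at 325 and 322 CPM in low Wnt + TGFB, against 678 and 706 CPM in low Wnt, and fell by 1.1 ± 0.11 on the log2 scale (adjusted p = 1.23e-06). NRP2 was at 525 and 438 CPM in low Wnt + TGFB, against 934 and 902 CPM in low Wnt, and fell by 0.93 ± 0.11 (adjusted p = 9.37e-06). NRP1 rose instead, at 7.04 and 9.08 CPM in low Wnt + TGFB, against 3.96 and 3.23 CPM in low Wnt (1.17 ± 0.19, adjusted p = 0.000197). The neuropilins thus moved in opposite directions, as NRP1's ligand SEMA3A rose, at 47.3 and 54.6 CPM in low Wnt + TGFB, against 16.6 and 20.9 CPM in low Wnt (1.45 ± 0.13, adjusted p = 5.46e-07). SEMA6A was at 489 and 594 CPM in low Wnt + TGFB, against 210 and 240 CPM in low Wnt (1.27 ± 0.11, adjusted p = 3.22e-07), and its receptor PLXNA2 was at 13.7 and 13.7 CPM, against 22.4 and 23.9 CPM (-0.75 ± 0.13, adjusted p = 0.000402). SEMA3G, a secreted ligand, was at 8.32 and 9.25 CPM in low Wnt + TGFB, against 2.86 and 4.01 CPM in low Wnt (1.35 ± 0.27, adjusted p = 0.00117).

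EPHA1 was at 28.0 and 38.6 CPM in low Wnt + TGFB, against 3.17 and 3.89 CPM in low Wnt, and rose by a log2 fold change of 3.24 ± 0.20 (adjusted p = 6.1e-09), the largest rise of any member. In low Wnt + SB4 it was at 0.305 and 0.210 CPM, against the same low Wnt libraries, and fell by 3.76 ± 0.40 on the log2 scale (adjusted p = 9.84e-06). So the libraries ranked TGFB, no additive, SB4 without overlap, all below the 208 and 235 CPM of hESC. The epithelial markers ranked alike, at 314 to 396 CPM in low Wnt + TGFB and 2.56 to 3.04 CPM in low Wnt + SB4, against 28.4 to 38.0 CPM in low Wnt. EPHA1 was at 4.12 and 3.31 CPM in high Wnt + TGFB and 0.445 and 0.390 CPM in high Wnt + SB4, against 1.91 and 1.03 CPM in high Wnt. It was called both times, and each call was lost without at least 1 library. The 5 epithelial markers were not called in high Wnt + TGFB against high Wnt, with sums of 14.9 to 15.4 CPM against 14.3 to 19 CPM. Stem cell markers summed to 2589 to 2942 CPM in low Wnt + TGFB and 1041 to 1188 CPM in low Wnt + SB4, against 1382 to 1598 CPM in low Wnt. LIN28A made up most of each sum, at 1705, 931 and 1137 CPM in that order. All 7 stem cell markers passed as higher with TGFB (13.7% of all genes), with a median log2 fold change of 3.30. With SB4 6 of the 7 passed as lower (6.39% of all genes), with a median of -2.23. The part of either in the level of EPHA1 was not tested.

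In low Wnt + SB4 against low Wnt, SEMA6A, EFNA5, NRP2 and SEMA6B fell most and EPHA7 and EFNB3 rose most among members that reached 5 CPM. Below that level EPHA1, given above, and the secreted ligands SEMA3E (-2.12 ± 0.33, adjusted p = 0.000416) and SEMA3G (-1.58 ± 0.31, adjusted p = 0.00321) fell further. Of the 53 members, 15 passed, against 11.2% of all genes, with 3 higher (4.84% of all genes) and 12 lower (6.39%), and 9 calls (2 higher, 7 lower) were kept in all alternatives at the threshold. The count was 9 without low Wnt replicate 2 and 9 without low Wnt + SB4 replicate 2. SEMA6A was at 82.3 and 75.4 CPM in low Wnt + SB4, against 210 and 240 CPM in low Wnt, and fell by 1.51 ± 0.12 on the log2 scale (adjusted p = 2.49e-07). EFNA5 was at 58.3 and 57.0 CPM in low Wnt + SB4, against 122 and 118 CPM in low Wnt, and fell by 1.06 ± 0.11 (adjusted p = 5.53e-06). NRP2 was at 477 and 423 CPM in low Wnt + SB4, against 934 and 902 CPM in low Wnt, and fell by 1.03 ± 0.11 (adjusted p = 1.18e-05). NRP2 was thus lower with either additive at this dose. At the higher dose it was also called lower with either, averaging 372 CPM in high Wnt + SB4 and 349 CPM in high Wnt + TGFB, against 469 CPM in high Wnt. Both of those calls were lost in some alternatives, among them library totals alone. SEMA6B, a membrane-bound ligand, was at 60.2 and 56.1 CPM in low Wnt + SB4, against 109 and 95.8 CPM in low Wnt (-0.81 ± 0.13, adjusted p = 0.000487). EPHA7 was at 86.4 and 94.8 CPM in low Wnt + SB4, against 54.5 and 53.9 CPM in low Wnt (0.74 ± 0.14, adjusted p = 0.00183). EFNB3 was at 269 and 259 CPM in low Wnt + SB4, against 189 and 181 CPM in low Wnt, and rose by 0.52 ± 0.10 (adjusted p = 0.00302), where TGFB had lowered it. Neural tube markers stood at 494 to 587 CPM in low Wnt + SB4, against 290 to 299 CPM in low Wnt, and their part was not tested. PLXNC1 was at 51.5 and 45.6 CPM in low Wnt + SB4, against 33.1 and 36.4 CPM in low Wnt (0.48 ± 0.13, adjusted p = 0.0278), and that call was lost when any 1 of these 4 libraries was left out, with adjusted p up to 0.206.

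In high Wnt + SB4 against high Wnt, SEMA6D, EPHA7, EPHB2 and EPHB6 rose, and EFNA1 and its receptor EPHA2, SEMA3B, SEMA3F, SEMA6B, PLXNA2 and PLXND1 fell. Of the 53 members, 15 passed, against 21.5% of all genes, with 4 higher (9.94% of all genes) and 11 lower (11.6%). On library totals alone the split was 6 higher and 8 lower. The 11 genes just named kept the call in all alternatives at the threshold. SEMA6D was at 123 and 148 CPM in high Wnt + SB4, against 31.6 and 45.2 CPM in high Wnt, a log2 fold change of 1.82 ± 0.16 (adjusted p = 8.93e-07). EPHA7 was at 48.9 and 57.3 CPM in high Wnt + SB4, against 20.6 and 26.6 CPM in high Wnt (1.17 ± 0.15, adjusted p = 3.36e-05). EPHB2 was at 29.2 and 34.2 CPM in high Wnt + SB4, against 17.1 and 22.1 CPM in high Wnt (0.69 ± 0.14, adjusted p = 0.0019). In this comparison the 3 genes moved with the neural tube markers, of which 4 of 6 passed as higher. These markers summed to 151 to 170 CPM in high Wnt + SB4, against 33.7 to 42.0 CPM in high Wnt, and their part was not tested. Between the doses without additive, EPHA7 and EPHB2 were lower in high Wnt, as was the sum of these markers. SEMA6D went the other way there, at 38.4 CPM in high Wnt against 9.77 CPM in low Wnt. EPHB6 was at 6.74 and 6.30 CPM in high Wnt + SB4, against 2.08 and 2.75 CPM in high Wnt (1.42 ± 0.30, adjusted p = 0.00283).

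EPHA2 was at 147 and 160 CPM in high Wnt + SB4, against 362 and 390 CPM in high Wnt, and fell by 1.29 ± 0.14 on the log2 scale (adjusted p = 8.83e-06). EFNA1 was at 7.05 and 3.96 CPM in high Wnt + SB4, against 16.4 and 12.7 CPM in high Wnt, and fell by 1.41 ± 0.26 (adjusted p = 0.00111). The ligand and the receptor that it binds were therefore both lower with SB4, without overlap of libraries. Of 7 caudal and paraxial markers 5 passed as lower (11.6% of all genes), and their sum was 381 to 462 CPM in high Wnt + SB4, against 474 to 513 CPM in high Wnt. Of 5 epithelial markers 3 passed as lower, with a sum of 5.57 to 6.99 CPM in high Wnt + SB4, against 14.3 to 19 CPM in high Wnt, where GRHL2 was at 0. The part of either in these falls was not tested. SEMA3F was at 52.7 and 46.9 CPM in high Wnt + SB4, against 114 and 99.3 CPM in high Wnt (-1.1 ± 0.15, adjusted p = 7.45e-05). SEMA6B was at 19.3 and 18.2 CPM in high Wnt + SB4, against 34.7 and 35.1 CPM in high Wnt (-0.90 ± 0.14, adjusted p = 0.000287). PLXND1 was at 49.1 and 51.2 CPM in high Wnt + SB4, against 90.0 and 86.5 CPM in high Wnt (-0.82 ± 0.10, adjusted p = 2.34e-05).

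In high Wnt + TGFB against high Wnt, SEMA3D, SEMA3C and PLXNA2 rose, and EPHA2, EFNB1, SEMA3A and EPHB1 fell. Of the 53 members, 13 passed, against 7.25% of all genes, with 7 higher (3.75% of all genes) and 6 lower (3.49%). On library totals alone 8 were higher and 5 lower. The 7 genes just named kept the call in all alternatives at the threshold, and the count was 8 without high Wnt + TGFB replicate 1. SEMA3D, a secreted ligand, was at 18.7 and 16.2 CPM in high Wnt + TGFB, against 3.99 and 4.75 CPM in high Wnt, a log2 fold change of 1.99 ± 0.23 (adjusted p = 4.34e-05). SEMA3C was at 39.0 and 34.4 CPM in high Wnt + TGFB, against 11.8 and 12.2 CPM in high Wnt (1.61 ± 0.15, adjusted p = 3.59e-06). PLXNA2 was at 141 and 130 CPM in high Wnt + TGFB, against 43.3 and 46.7 CPM in high Wnt (1.59 ± 0.12, adjusted p = 5.92e-07). These TGFB levels of PLXNA2 and SEMA3C were the highest of all 7 groups. EPHA2 was at 171 and 207 CPM in high Wnt + TGFB, against 362 and 390 CPM in high Wnt, and fell by 0.99 ± 0.14 (adjusted p = 0.000278), next to its fall with SB4 against the same libraries. EFNB1 was at 81.7 and 76.5 CPM in high Wnt + TGFB, against 157 and 129 CPM in high Wnt (-0.85 ± 0.13, adjusted p = 0.00063). SEMA3A was at 66.8 and 71.7 CPM in high Wnt + TGFB, against 111 and 123 CPM in high Wnt (-0.76 ± 0.12, adjusted p = 0.000874). EPHB1 was at 14.4 and 14.6 CPM in high Wnt + TGFB, against 22.4 and 24.6 CPM in high Wnt (-0.70 ± 0.13, adjusted p = 0.00248). EPHB6, at 5.56 and 5.52 CPM in high Wnt + TGFB, against 2.08 and 2.75 CPM in high Wnt (1.18 ± 0.31, adjusted p = 0.0253), lost the call when any 1 of these 4 libraries was left out, with adjusted p up to 0.187. Of the caudal and paraxial markers, 2 of 7 passed as higher and 1 as lower, with MEOX1 at 221 CPM in high Wnt + TGFB, against 73.6 CPM in high Wnt, and CDX2 at 169 CPM in high Wnt + TGFB, against 318 CPM in high Wnt. Their sum was 529 to 538 CPM in high Wnt + TGFB, against 474 to 513 CPM in high Wnt. Of 6 neuron markers tested 3 passed as lower, and the 7 listed summed to 64.1 to 67.7 CPM in high Wnt + TGFB, against 144 to 171 CPM in high Wnt, with ISL1 at 0 in both. STMN2 alone, at 145 CPM, made up most of the neuron sum in high Wnt, where ELAVL4 was next at 9.88 CPM. The part of either list in these results was not tested.

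**Figure D4:**
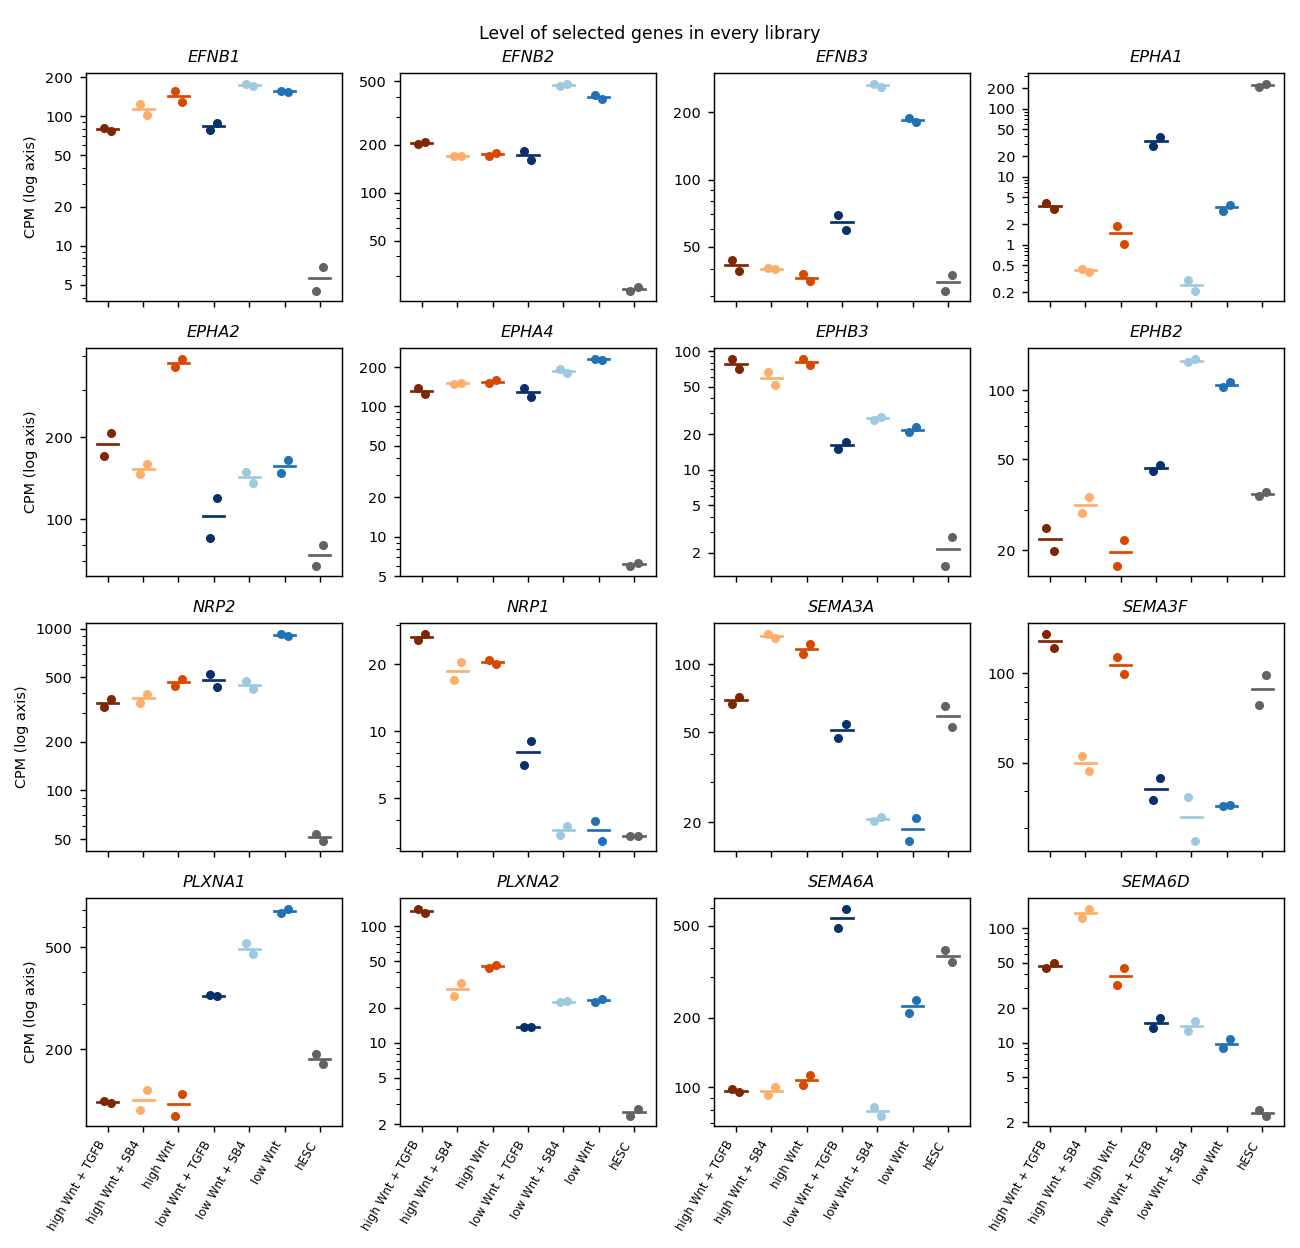
CPM on a log axis of 16 genes in all 14 libraries, with points for libraries and lines for group means. In low Wnt + TGFB, EFNB3 lies below and SEMA3A above low Wnt, while in high Wnt + TGFB SEMA3A lies below high Wnt, and PLXNA2 is highest in high Wnt + TGFB.

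Whether an additive acted differently at the 2 doses was tested directly, as the effect in high Wnt minus the effect in low Wnt. For TGFB the effect differed in 17 of 53 members, against 11.8% of all genes, with 12 differences positive (5.73% of all genes) and 5 negative (6.06%), and 11 kept the call in all alternatives at the threshold. Of the members called in opposite directions at the doses, SEMA3A and PLXNA2 kept both calls without any 1 library: SEMA3A fell in high Wnt and rose in low Wnt, a difference of -2.21 ± 0.18 (adjusted p = 5.36e-07), and PLXNA2 rose in high Wnt and fell in low Wnt, a difference of 2.34 ± 0.18 (adjusted p = 2.46e-07). For EFNB3 and EFNB2, which fell in low Wnt, the values in high Wnt were 0.18 ± 0.11 and 0.24 ± 0.09, neither past the threshold, and the differences were 1.71 ± 0.15 (adjusted p = 1.27e-06) and 1.45 ± 0.13 (adjusted p = 9.06e-07). For EFNB1, which fell at both doses, the difference did not pass (0.04 ± 0.19, adjusted p = 0.93). EPHB2 and PLXNA1, which also fell in low Wnt, differed by 1.39 ± 0.19 and 1.13 ± 0.16, and SEMA6A, which rose there, by -1.42 ± 0.16 (adjusted p = 0.000106, 0.00012 and 1.4e-05). SEMA3C and SEMA3D, which rose in high Wnt, differed by 2.08 ± 0.20 and 1.82 ± 0.33 (adjusted p = 2.53e-06 and 0.00124). SEMA3C was also called lower in low Wnt + TGFB (-0.47 ± 0.14, adjusted p = 0.0192), a call with an adjusted p of 0.197 without low Wnt replicate 2 and of 0.234 without low Wnt + TGFB replicate 2. SEMA5A was called higher in high Wnt + TGFB (0.79 ± 0.15, adjusted p = 0.0031) and lower in low Wnt + TGFB (-0.52 ± 0.15, adjusted p = 0.0153). Its high Wnt call had an adjusted p of 0.0557 without high Wnt replicate 1. Its low Wnt call had 0.0877 without low Wnt replicate 2, 0.0886 without low Wnt + TGFB replicate 1 and 0.0611 without low Wnt + TGFB replicate 2.

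For SB4 the effect differed between the doses in 11 of 53 members, against 6.07% of all genes, with 7 differences positive (2.71% of all genes) and 4 negative (3.36%), and 6 kept the call in all alternatives at the threshold. The count was 7 without low Wnt + SB4 replicate 1, without high Wnt replicate 1 or without high Wnt + SB4 replicate 2. SEMA6A and EFNA5, which fell with SB4 in low Wnt, had values of -0.15 ± 0.11 and 0.03 ± 0.12 in high Wnt, neither past the threshold, and the differences were 1.36 ± 0.16 and 1.09 ± 0.16 (adjusted p = 4.68e-05 and 0.000339). EPHA2 and PLXND1, which fell with SB4 in high Wnt, had values of -0.13 ± 0.14 and -0.07 ± 0.10 in low Wnt, and the differences were -1.16 ± 0.20 and -0.75 ± 0.14 (adjusted p = 0.00158 and 0.00307). SEMA6D differed by 1.30 ± 0.25 (adjusted p = 0.00344). EPHA7, higher with SB4 at both doses, had a difference of 0.42 ± 0.20 that did not pass (adjusted p = 0.27).

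**Figure D5:**
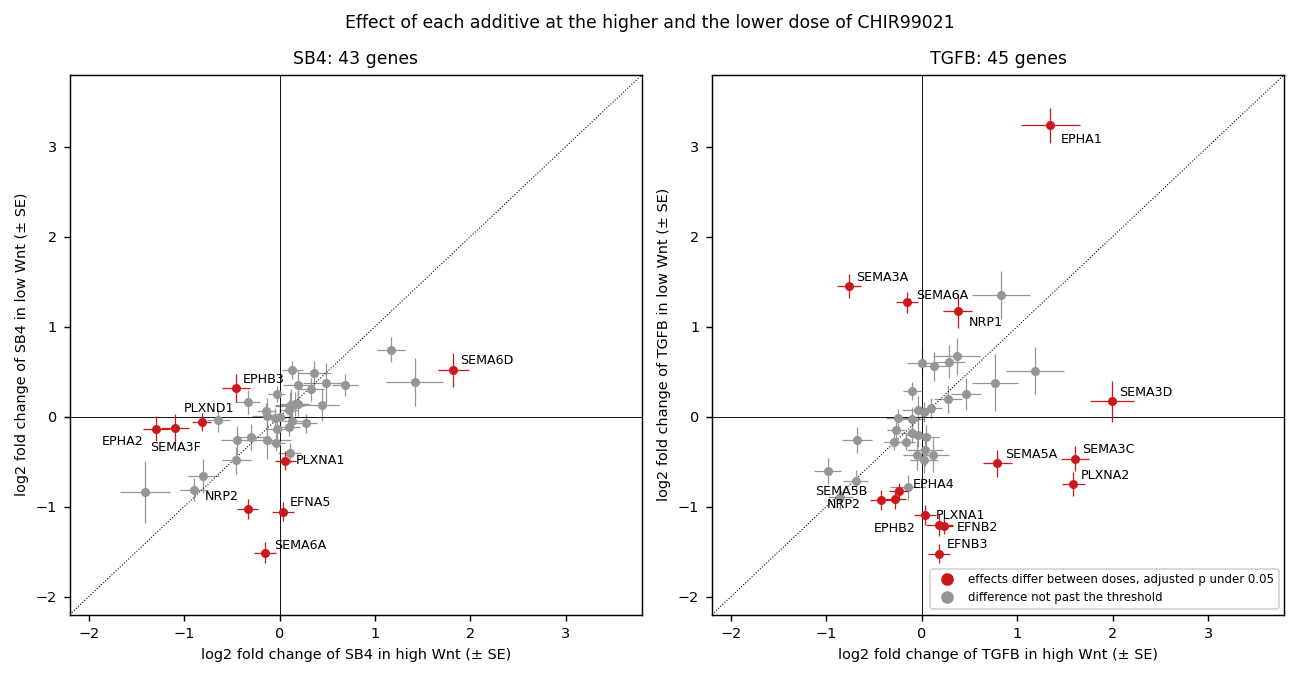
Log2 fold change of SB4 (left, 43 genes) and TGFB (right, 45 genes) in high Wnt (x) and in low Wnt (y), with standard errors, for genes with 5 CPM or more in any group compared; red marks effects that differ between doses and the dotted line marks equal effects. For TGFB, EFNB2, EFNB3, EPHB2 and PLXNA1 lie far below 0 on the y axis and close to 0 on the x axis, and SEMA3A and PLXNA2 lie in opposite corners.

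The proteins that work beside these families were read from lists of partners. Of 28 Eph and ephrin partners, 16 rose and 6 fell in high Wnt against hESC, and likewise 16 rose and 6 fell in low Wnt against hESC, against 72.4% and 71.4% of all genes called. TIAM1, an exchange factor for Rac, averaged 153 CPM in high Wnt, against 174 CPM in low Wnt and 36.9 CPM in hESC. Between the doses 4 of these 28 rose and 2 fell, against 38.5% of all genes called, among them ADAM10, a protease that sheds ephrins, which was higher in high Wnt (0.52 ± 0.10, adjusted p = 0.000809). Of 28 semaphorin and plexin partners, 7 rose and 10 fell in high Wnt against low Wnt, where 19.4% of all genes rose and 19.1% fell. DPYSL3, a CRMP that relays semaphorin signals to the cytoskeleton, averaged 315 CPM in high Wnt, against 962 CPM in low Wnt (-1.61 ± 0.09, adjusted p = 2.9e-10). The share of all genes called was 26.0% in low Wnt + TGFB, 11.2% in low Wnt + SB4, 7.25% in high Wnt + TGFB and 21.5% in high Wnt + SB4. Beside these shares, the Eph partners gave 3 higher and 6 lower in low Wnt + TGFB, 4 and 2 in low Wnt + SB4, 1 and 3 in high Wnt + TGFB and 4 and 4 in high Wnt + SB4. The semaphorin partners gave 4 higher and 9 lower in low Wnt + TGFB, 3 and 3 in low Wnt + SB4, 2 and 3 in high Wnt + TGFB and 5 and 7 in high Wnt + SB4. Of the 22 genes of the netrin, SLIT, RGM and draxin systems 20 were tested, and 6 rose and 7 fell in high Wnt against low Wnt, beside the same 19.4% and 19.1% of all genes. SLIT2, a secreted repellent read by ROBO receptors, averaged 202 CPM in high Wnt, against 4.86 CPM in low Wnt (5.38 ± 0.16, adjusted p = 1.49e-13), and RGMA, a ligand of neogenin, 114 CPM against 319 CPM (-1.49 ± 0.11, adjusted p = 1.57e-08).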

How the data were processed

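All 14 libraries are in a single gene table of raw counts, as deposited by the authors. The hg38 genome is named with bcl2fastq, featureCounts 2.0.0, HISAT2 2.2.0 and SAMtools 1.10, per the submitters' processing notes. Per the file headers, read pairs were counted on exons of the UCSC hg38 annotation as fragments on the reverse strand, and no option for multiply mapped or multiply overlapping reads was set.

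The table was analysed in R 4.3.3 with edgeR 4.0.16 (filterByExpr, TMM, glmQLFit, glmQLFTest) in 1 fit of all 14 libraries with a mean per group and 7 residual degrees of freedom. The fit tested 16149 of 26485 genes (4943 had no counts), and p-values were adjusted by Benjamini-Hochberg over all genes tested; a gene was called at an adjusted p under 0.05. SE is the log2 fold change divided by the root of F. CPM uses TMM-scaled totals, and CPM per kb the exon length in the file. A count of 0 allows up to 3 counts, or 0.157 to 0.276 CPM per library on totals without TMM scaling. The fold bounds take 3 counts over a whole group. Such floors and intervals cover counting error only. The script was tested on 5 simulated tables with 200 changed genes each, for high Wnt against low Wnt. At the same threshold 77.2% of 2-fold and 95.6% of 4-fold changes were recovered, and 8.57% of the calls were false. The changed genes were drawn from those averaging over 1 CPM, and 38.5% of all genes passed in the real comparison. These rates therefore need not hold there or for members near the limit of counting.

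The members and lists were chosen with earlier results of these data known. Values in every library of the groups compared are given, per contrast, for up to 4 called members at each end of the fold changes. Their higher group reached 5 CPM and their libraries did not overlap. In each difference between doses, up to 4 members with the smallest p are given by their log2 difference. For a panel of 18, libraries are given in high Wnt and low Wnt, and in the other groups only in part. Alternatives were leaving out each library or hESC, a replicate block, only the groups compared, no filter, a fold minimum, DESeq2 1.42.0, and scaling by RLE or by library totals. No library was taken as a duplicate, as chi-square over degrees of freedom was 5.26 to 14.1 between replicates. SB4 was read as SB431542 and TGFB as TGF-beta 1.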

Additional observations from a re-analysis of the deposited data

Results flagged for a closer look

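The effect of TGFB in high Wnt minus that in low Wnt passed the threshold in 17 members, each flagged because the additive's effect differed between the doses by the test of that difference. Among receptors of ephrins the log2 differences were 1.39 for EPHB2, 0.59 for EPHA4, 2.86 for EPHA3, -3.97 for EPHA6 and -1.89 for EPHA1. Among ephrins they were 1.45 for EFNB2 and 1.71 for EFNB3. Semaphorins gave -2.21 for SEMA3A, 2.08 for SEMA3C, 1.82 for SEMA3D, 1.31 for SEMA5A, 0.634 for SEMA5B and -1.42 for SEMA6A. Semaphorin receptors gave 2.34 for PLXNA2, 1.13 for PLXNA1, -0.796 for NRP1 and 0.505 for NRP2. EPHA4, EPHA6, EPHA1, SEMA5B, NRP1 and NRP2 lost the call without at least 1 library.

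The effect of SB4 in high Wnt minus that in low Wnt passed in 11 members, flagged for the same reason. Eph receptors gave -1.16 for EPHA2 and -0.776 for EPHB3, and the ephrin EFNA5 gave 1.09. Semaphorins gave -0.971 for SEMA3F, 2.18 for SEMA3G, 2.02 for SEMA3E, 1.36 for SEMA6A and 1.30 for SEMA6D. Receptors of semaphorins gave 0.696 for NRP2, 0.549 for PLXNA1 and -0.750 for PLXND1. SEMA3F, EPHB3, NRP2, PLXNA1 and SEMA3E lost the call without at least 1 library. EPHA3, EPHA6, SEMA3E and SEMA3G averaged under 10 CPM in every group.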

How the results depend on the processing

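Of the 227 calls of members over the 9 comparisons, 172 held in every alternative at the same threshold, 55 were lost in at least 1, and none of the called changes turned its sign there. Asking also for a log2 fold change of at least 1 cut the counts to 7 in low Wnt + SB4, 12 in low Wnt + TGFB, 7 in high Wnt + SB4, 6 in high Wnt + TGFB and 6 for the difference in SB4 effects. Leaving out 1 library gave 41 to 44 members in high Wnt and 42 to 44 in low Wnt against hESC, 36 to 37 between doses, 9 to 10 in low Wnt + SB4, 19 to 25 in low Wnt + TGFB, 12 to 14 in high Wnt + SB4, 8 to 11 in high Wnt + TGFB, 7 to 11 for the difference in SB4 effects and 12 to 19 for that in TGFB effects; a group then left with 1 library is assumed to vary like the others. Of 709 values of named genes under alternatives, 701 kept direction and call and 8 lost the call, all of them PLXNC1 in low Wnt + SB4 or EPHB6 in high Wnt + TGFB without 1 library. Library totals alone moved the median log2 fold change of all genes most in low Wnt against hESC, from 0.00403 with TMM to 0.0931.

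Replicate numbers did not pair the libraries over all groups: the correlation of deviations from the group means ran from -0.116 to 0.206 over 21 pairs of groups (median 0.0566), and 5 were over 0.1. These 5 include all the pairs among the high Wnt groups, at 0.206 for high Wnt with high Wnt + SB4, 0.119 for high Wnt with high Wnt + TGFB and 0.111 for high Wnt + SB4 with high Wnt + TGFB, a hint from the data and not the design. With the replicate block the counts were 42 in high Wnt and 45 in low Wnt against hESC, 40 between doses, 17 in low Wnt + SB4, 30 in low Wnt + TGFB, 15 in high Wnt + SB4, 14 in high Wnt + TGFB, 12 for the difference in SB4 effects and 17 for that in TGFB effects. Depth limits EPHA1, EPHA3, EPHA5, EPHA6, EPHA8, EPHA10, PLXNA4 and SEMA3E, which had under 1 CPM in at least 1 group.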
